A study of Arabidopsis thaliana with 6 samples.

Results

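The 5 stomatal basic helix-loop-helix (bHLH) genes MUTE, SPEECHLESS (SPCH), FAMA, SCREAM (SCRM, also called ICE1) and SCREAM2 (SCRM2, also called ICE2) were examined for occupancy by MUTE-GFP in Arabidopsis thaliana seedlings. A listed peak was assigned to a gene when its summit lay in a fixed TAIR10 window of 7 to 9 kb around it: chromosome 3, 1843500 to 1850500 for MUTE; chromosome 5, 21583500 to 21591500 for SPCH; chromosome 3, 8712000 to 8720000 for FAMA; chromosome 3, 9829000 to 9838000 for SCRM; and chromosome 1, 4381500 to 4389000 for SCRM2. This rule used positions only and gave 23 peaks of 30979 in the 3 lists, 8 of 12400 in replicate 1, 6 of 10835 in replicate 2 and 9 of 7744 in replicate 3.

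Chromatin immunoprecipitation and sequencing (ChIP-seq) was carried out on entire seedlings 2 days after germination. The study has 3 anti-GFP immunoprecipitated (IP) samples of the homozygous line proMUTE::MUTE-GFP scrm-D, in which MUTE-GFP is driven by the MUTE promoter and a dominant SCRM allele, scrm-D, is present. The 3 input samples, chromatin of the same line taken without antibody, carried the same transgene and the same allele. Every sample therefore shares 1 genotype, and an IP of plants without MUTE-GFP was not analysed here. The samples are numbered 1 to 3 in each group, and nothing in the labels says whether they were separate cultures beyond 60 mg of seed for each, so the spread between them may be partly technical.

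These 5 genes encode the bHLH proteins that carry cells through the stomatal lineage. SPCH starts the lineage with asymmetric divisions, MUTE ends those divisions and commits the cell to become a guard mother cell, and FAMA acts last, in guard cell formation. SCRM and SCRM2 are partly redundant partners that pair with each of them, and such pairs recognise short DNA elements known as E-boxes. The transgene adds copies of MUTE promoter and coding sequence, so fragments counted at the MUTE locus can come from the transgene as well as from the native gene. The scrm-D allele is known to drive excess stomatal differentiation, so the seedlings are not a model of the wild-type epidermis. The labels give whole seedlings, and peak lists hold no expression markers with which the cell types could be checked.

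The IP libraries held 30075453, 20173429 and 21903071 fragments after duplicate removal in replicates 1, 2 and 3. Height is given as the pileup, the count of IP fragments that cover the summit, and as depth-scaled pileup in FPM, that is pileup per 1000000 kept IP fragments. On chromosomes 1 to 5 the median listed peak was 644.5, 694 and 666 bp wide in replicates 1, 2 and 3, with a pileup of 4.79, 5.55 and 5.25 FPM. Fold enrichment, which the authors' peak caller computed, sets the summit's pileup against local background, and its median was 1.80, 2.03 and 1.95. Of the listed peaks 12.5%, 22.1% and 18.8% had a fold enrichment of 3 or more.

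All 5 loci lay in regions with a peak in every replicate, where a region is a set of overlapping or touching peaks of the joined lists. The background was 42.2% of all 14106 regions on chromosomes 1 to 5. That share is per region, whereas the 5 were counted per locus. By gene, 44.0% of 27444 protein-coding genes had a region of every replicate within 3 kb. In the regions of the 5 loci the tallest peak reached a fold enrichment of at least 3 in every replicate at SPCH, FAMA, SCRM and SCRM2. MUTE missed that level through replicate 1 alone. It was met in every replicate by 1164 of all 14106 regions (8.25%). Only the 5957 regions with a peak in every replicate could meet it, so the share among those is higher. By gene, 11.6% of protein-coding genes had a region within 3 kb that met it. Of the 23 member peaks 14 reached that level, 4 of 8, 5 of 6 and 5 of 9 in replicates 1, 2 and 3. The share of all listed peaks of chromosomes 1 to 5 was 12.5%, 22.1% and 18.8%. Each of the 14 member peaks was the tallest peak of its locus. The remaining 9 were 8 lower side peaks and the tallest MUTE peak of replicate 1.

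**Figure D1:**
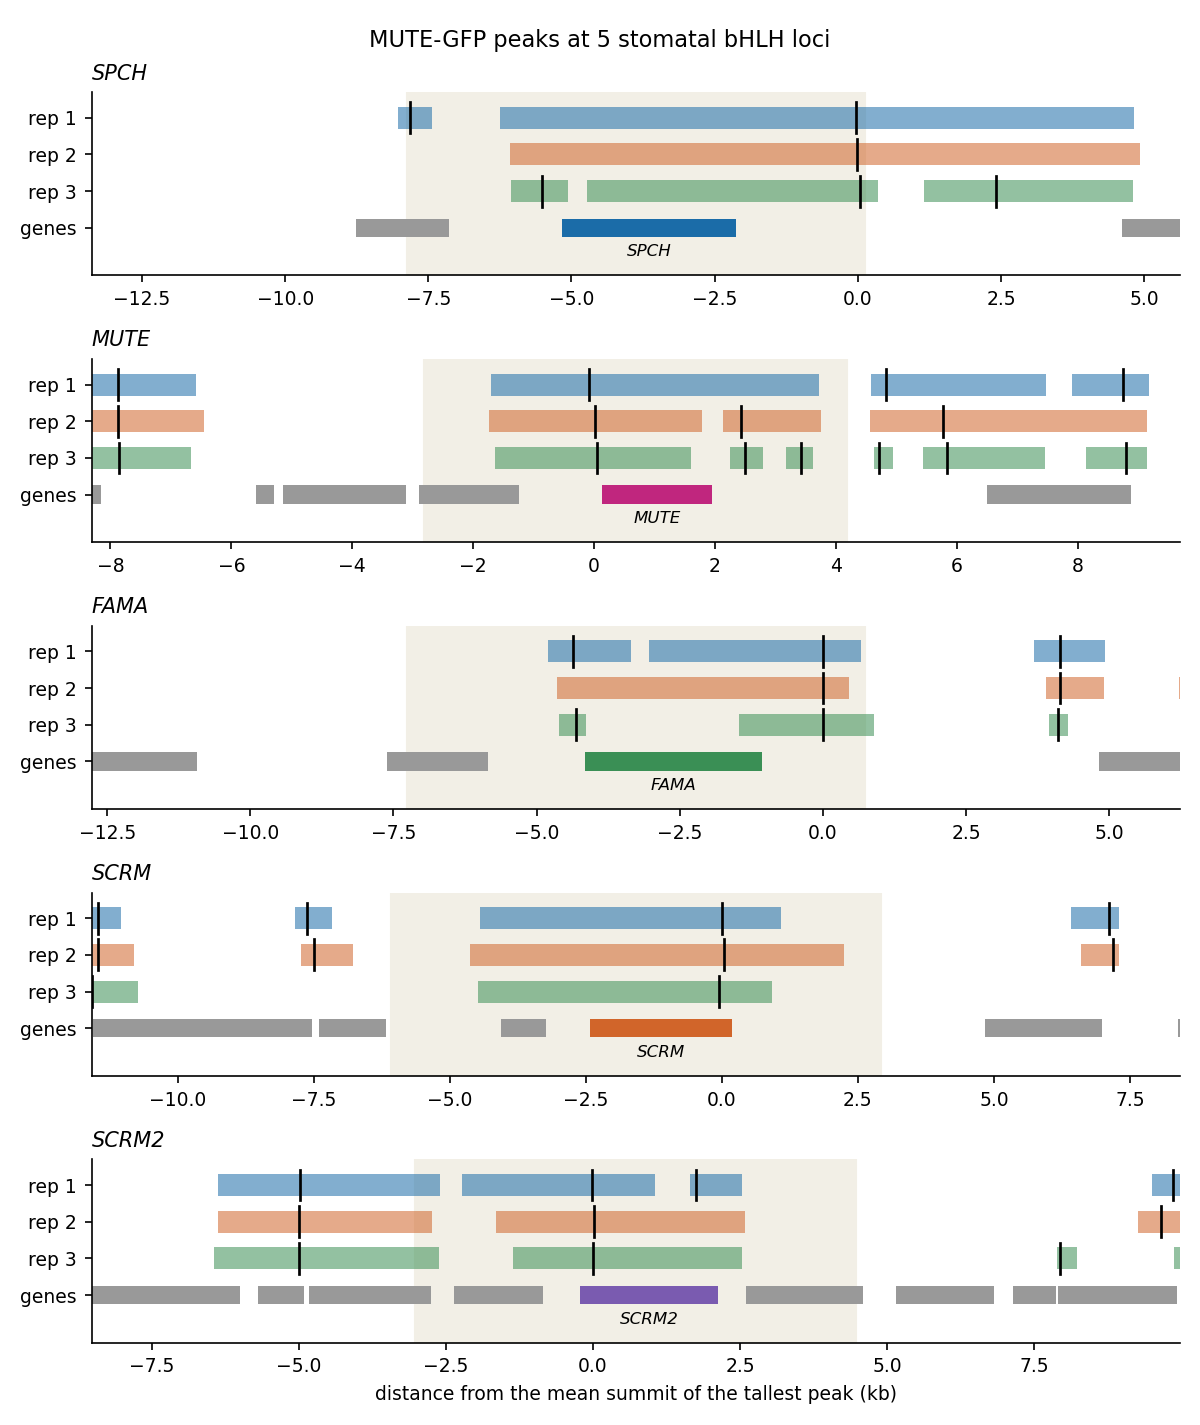
Listed MUTE-GFP peaks at the 5 loci, as coloured bars for replicates 1, 2 and 3 with black ticks at the summits, against distance in kb from the mean summit of the tallest peak. The shaded span is the window that chose the members, coloured boxes mark the named gene and grey boxes other protein-coding genes. The tallest summits of the 3 replicates fall within 6 to 134 bp of each other, while the ends of the peaks and the number of pieces differ.

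SCRM, the partner whose scrm-D allele the line carries, held 1 peak in each replicate. Replicate 1 placed it on chromosome 3 at 9830629 to 9836178, replicate 2 at 9830451 to 9837326 and replicate 3 at 9830602 to 9835999, or 5550, 6876 and 5398 bp. Its summit stood at 9835087, 9835129 and 9835035. Gene spans were taken from RefSeq's TAIR10.1 annotation, which keeps the TAIR10 numbering of the nuclear chromosomes but came without strand or exons, so which end of a gene is its start is not given in the sources used here. All 3 summits lay inside the SCRM gene (AT3G26744), 192, 150 and 244 bp from its high-coordinate end, and the peaks also covered the neighbouring gene AT3G26742.

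The SCRM pileup was 548, 554 and 474 fragments, or 18.2, 27.5 and 21.6 FPM, a mean of 22.4 ± 4.67 (SD, n = 3). Replicate 2 was the highest and replicate 1 the lowest, and their 95% exact Poisson intervals, which cover counting error only, did not overlap (25.2 to 29.8 against 16.7 to 19.8). Fold enrichment was 6.69, 10.4 and 7.09. That placed SCRM 16th, 7th and 50th by fold among 12388, 10823 and 7710 peaks of chromosomes 1 to 5.

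SCRM2, the paralogue of SCRM, had its tallest peak on chromosome 1, where replicate 1 placed it at 4382305 to 4385574, replicate 2 at 4382879 to 4387105 and replicate 3 at 4383158 to 4387055. Summits at 4384507, 4384546 and 4384521 lay inside the gene (AT1G12860), 203, 242 and 217 bp from its low-coordinate end. As at SCRM, the summit thus stood inside the gene within 250 bp of one end, with the peak running out over the adjoining gene, here AT1G12855. Replicate 1 alone listed a further peak over SCRM2, at 4386174 to 4387061, with a pileup of 117 fragments and a fold enrichment of 1.49. The same stretch belonged to the main peak in the other replicates.

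Pileup at SCRM2 was 524, 545 and 479 fragments, or 17.4, 27.0 and 21.9 FPM (22.1 ± 4.80, SD, n = 3), and fold enrichment was 6.70, 9.40 and 8.41. It ranked 15th, 22nd and 11th by fold. SCRM and SCRM2 differed in height by less than the replicates did. The log2 difference in depth-scaled pileup, SCRM minus SCRM2, was 0.06, 0.02 and -0.02 in replicates 1, 2 and 3, a mean of 0.02 ± 0.04 (SD).

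A region of the same strength lay just outside the SCRM2 window. It spanned 4378087 to 4381931, was separated from the SCRM2 region by 373 bp, and had its summits 1950, 1980 and 1970 bp below the window. Its tallest peak reached 17.5, 24.6 and 20.2 FPM with fold enrichments of 6.36, 9.36 and 8.13, and its summits lay in AT1G12845. By mean log2 fold enrichment this region ranked 18th of the 5957 regions found in every replicate, beside 13th for SCRM2. It was not counted as a member, since its summits lie outside the window. They lie 4991 bp from those of SCRM2, and 2 other genes stand between.

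SPCH had the widest peak of the 5 loci in replicates 1 and 2, but not in replicate 3, where the SCRM peak was wider (5398 bp). On chromosome 5, replicate 1 listed 1 peak of 11072 bp (21585125 to 21596196) and replicate 2 a peak of 11010 bp (21585297 to 21596306), the 11th and 13th widest of their lists. Both covered the whole SPCH gene (AT5G53210), the intergenic stretch on its high-coordinate side and the edge of AT5G53220. Replicate 3 divided the same stretch into 3 peaks with gaps of 334 and 807 bp. Its tallest peak measured 5082 bp (21586648 to 21591729), and the last piece, at 21592537 to 21596191, had a pileup of 387 fragments and a fold enrichment of 6.29, but its summit lay 2287 bp outside the window. The joined SPCH region, 11182 bp long, was the 12th widest of the 5957 regions found in every replicate, whose median width was 1306 bp. The lists give 1 summit per peak, so a local maximum inside the long peaks of replicates 1 and 2 could not be seen.

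The SPCH summits lay outside the gene, at 21591354, 21591359 and 21591424, which is 2099, 2104 and 2169 bp beyond its high-coordinate end. They were 146, 141 and 76 bp inside the edge of the window, so a window ending 150 bp earlier would have missed all 3. Pileup was 474, 499 and 406 fragments, or 15.8, 24.7 and 18.5 FPM (19.7 ± 4.60, SD, n = 3). Fold enrichment was 6.20, 9.31 and 7.12, with ranks of 38th, 26th and 46th. A separate peak of replicate 1 at 21583358 to 21583937, with a summit 65 bp inside the other edge of the window, overlapped AT5G53200 (TRIPTYCHON, a regulator of leaf hair patterning). Its fold enrichment was 1.72, and it was found in replicate 1 only.

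FAMA had the lowest pileup of the 5 loci and the most closely placed summits. Its tallest peak on chromosome 3 spanned 8716234 to 8719928 by the list of replicate 1, 8714633 to 8719718 by that of replicate 2 and 8717801 to 8720162 by that of replicate 3. The summits at 8719271, 8719267 and 8719273 fell within 6 bp, 1060, 1056 and 1062 bp beyond the high-coordinate end of the gene (AT3G24140). The tallest peak of every replicate also covered AT3G04625, a noncoding RNA gene that lies between FAMA and the summits. Over 4873 regions to which every list gave exactly 1 peak, the median spread of summits was 88 bp, and 1.07% of them had a spread below that of FAMA. FAMA itself is not among them, since replicates 1 and 3 listed 2 peaks there, and its spread is that of the tallest peaks. At the other loci the share with a smaller spread was 19.7% for SCRM2, 40.8% for SPCH, 52.3% for SCRM and 65.5% for MUTE. FAMA and SPCH thus shared a summit outside the gene on the high-coordinate side, at 1 kb and 2 kb.

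Pileup at FAMA was 381, 308 and 261 fragments, or 12.7, 15.3 and 11.9 FPM (13.3 ± 1.76, SD, n = 3), and fold enrichment was 4.77, 5.35 and 4.50. The ranks by fold were 292nd, 665th and 511th, at the 97.7th, 93.9th and 93.4th percentiles. Replicates 1 and 3 listed a lower peak at the other end of the gene, with fold enrichments of 2.35 and 1.75 and summits at 8714904 and 8714960. Replicate 2 joined both ends in 1 peak of 5086 bp. FAMA was the locus with the smallest common stretch: 41.7% of its joined region was covered in all 3 replicates, against 68.7% at SCRM2, 77.4% at MUTE, 78.1% at SCRM and 87.0% at SPCH.

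MUTE's own locus had the tallest peak of the 5 in every replicate and the lowest fold enrichment. On chromosome 3 the tallest peak covered 1844599 to 1850031 (replicate 1), 1844580 to 1848097 (replicate 2) and 1844669 to 1847916 (replicate 3). Its summits at 1846233, 1846335 and 1846367 lay 209, 107 and 75 bp outside the low-coordinate end of the gene (AT3G06120), and the peaks covered the whole gene in replicate 1 and most of it in replicates 2 and 3, together with the edge of AT3G06110 (MKP2, a MAP kinase phosphatase). The region was 1 peak of 5433 bp in replicate 1, 2 peaks in replicate 2 and 3 peaks in replicate 3. The side peaks overlapped AT3G06125, a noncoding RNA gene, with fold enrichments of 2.52 in replicate 2 and of 2.09 and 2.16 in replicate 3.

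The MUTE pileup was 639, 624 and 613 fragments, or 21.2, 30.9 and 28.0 FPM (26.7 ± 4.97, SD, n = 3). It ranked 10th, 9th and 13th in its list, where the tallest peaks of chromosomes 1 to 5 held 710, 704 and 703 fragments. Fold enrichment was 2.49, 3.24 and 3.01, with ranks of 2491st, 2063rd and 1433rd. The same peaks therefore stood at the 99.8th to 99.9th percentile of their list by pileup and at the 79.9th to 81.4th by fold.

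Fold is pileup over background, and the background behind MUTE was high. Back-computed from both columns, it was 256, 192 and 203 fragments at the MUTE summit, or 3.25, 3.55 and 3.54 times the median of the list. At the other 4 loci it was 0.962 to 1.15 times that median. The side peaks of MUTE in replicates 2 and 3 had 1.71 to 1.74 times the median. The nearest peaks beyond the window had 1.38, 1.18 and 1.44 times the median on the high-coordinate side and 1.22, 1.08 and 0.964 times on the other. The raised background was thus highest at the MUTE gene and lower on both sides of it. This background comes from the input, which was taken without antibody, and the cause of its rise at MUTE was not tested. In the IP pileup at MUTE, native binding, binding at the transgene's copies and the dose of those copies in the DNA cannot be told apart in this line.

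**Figure D2:**
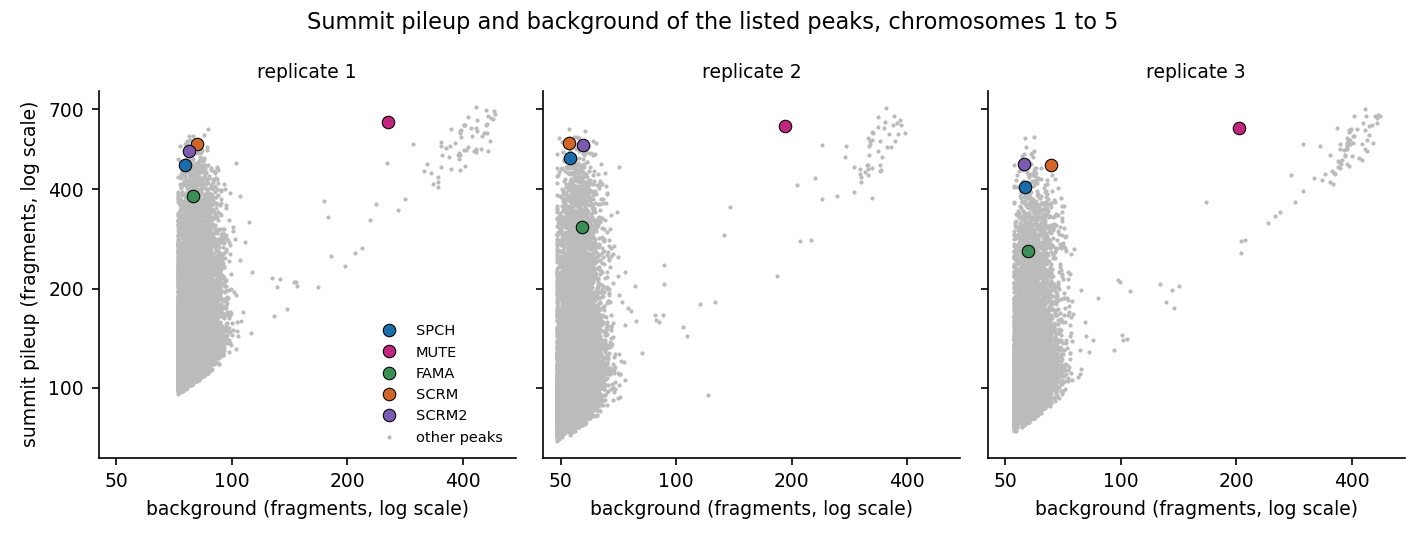
Summit pileup against back-computed background, both in fragments on log axes, for the 5 loci (coloured) and the other listed peaks of chromosomes 1 to 5 (grey), with a panel for each replicate. SPCH, FAMA, SCRM and SCRM2 lie over the bulk of the peaks, and MUTE stands apart at a background of 256, 192 and 203 fragments with a pileup of 639, 624 and 613.

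Few other peaks had a background as high as that of MUTE, 60 of 12388 in replicate 1, 52 of 10823 in replicate 2 and 74 of 7710 in replicate 3. Their fold enrichments were low, with medians of 1.36, 1.58 and 1.37 and maxima of 1.85, 2.27 and 1.84. None reached the fold enrichment of MUTE (2.49, 3.24 and 3.01). With a background at least as high, that would take a pileup at least as high as that of MUTE. Only 9, 8 and 12 other peaks of the lists had one, so this outcome was largely set by the choice of peaks. With the background subtracted, MUTE pileup was 17.6 ± 4.44 FPM, beside 19.7 ± 4.76 at SCRM, 19.4 ± 4.67 at SCRM2, 17.1 ± 4.55 at SPCH and 10.6 ± 1.65 at FAMA (SD, n = 3 each). On that scale MUTE fell inside the range of the other loci.

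The loci were ordered by mean depth-scaled pileup as MUTE, SCRM, SCRM2, SPCH and FAMA. The loci were compared within each replicate, because both were measured in the same library, by a two-sided exact sign-flip permutation test over the 3 replicates. This test cannot give a p below 0.25, so none of the 4 differences between neighbours could pass a threshold of 0.05, and their sizes and signs carry the comparison. The pairs and their direction were set by the same values, here and in the order by fold below. A positive mean difference was thus favoured in advance, and the signs are a description only. MUTE exceeded SCRM by 0.25 ± 0.10 on the log2 scale (SD, n = 3) in 3 of 3 replicates (exact p = 0.25, Benjamini-Hochberg adjusted p = 0.333). SCRM and SCRM2 did not differ beyond their spread and had the same sign in only 2 of 3 replicates (exact p = 0.5, adjusted p = 0.5). SCRM2 exceeded SPCH by 0.17 ± 0.06 and SPCH exceeded FAMA by 0.55 ± 0.21, each in 3 of 3 replicates (exact p = 0.25, adjusted p = 0.333 for both).

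Ordered by fold enrichment, MUTE moved to the last place. The mean fold enrichment was 8.17 ± 1.36 at SCRM2, 8.06 ± 2.03 at SCRM, 7.54 ± 1.60 at SPCH, 4.87 ± 0.435 at FAMA and 2.91 ± 0.384 at MUTE (SD, n = 3 each). The log2 differences between neighbours were 0.03 ± 0.20 for SCRM2 minus SCRM and 0.09 ± 0.08 for SCRM minus SPCH, with mixed signs in both. SPCH minus FAMA was 0.61 ± 0.21 and FAMA minus MUTE 0.75 ± 0.18, each with the same sign in 3 of 3 replicates (exact sign-flip permutation p = 0.25). By fold, then, neither neighbouring pair among SCRM2, SCRM and SPCH kept its sign in all replicates, and FAMA lay below SPCH in 3 of 3 on both scales. SCRM2 and SPCH are not neighbours in this order, and SCRM2 had the higher fold in 3 of 3, by a mean of 0.12 on the log2 scale.

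**Figure D3:**
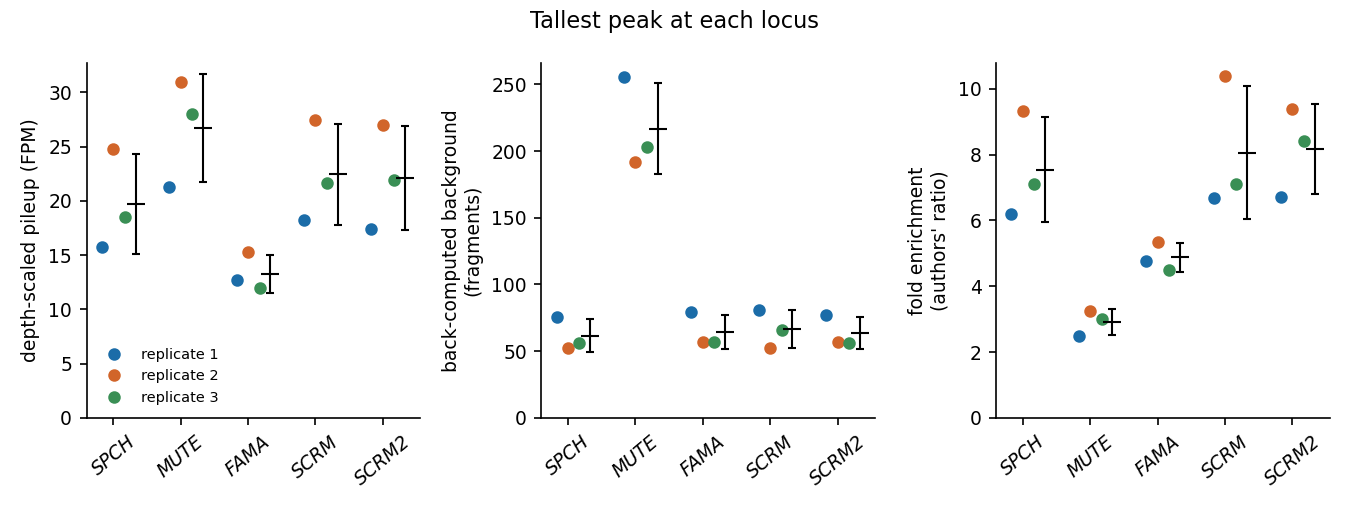
Depth-scaled pileup (FPM), back-computed background in fragments, and the authors' fold enrichment of the tallest peak at each locus. Points are replicates 1 to 3 and bars the mean ± SD (n = 3). MUTE has the highest pileup (26.7 ± 4.97 FPM) and background and the lowest fold (2.91 ± 0.384), and FAMA the lowest pileup (13.3 ± 1.76 FPM).

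Replicate 2 gave the highest depth-scaled pileup at all 5 loci, and replicate 1 the lowest at all but FAMA, where it was replicate 3. The coefficient of variation over replicates was 13.2% at FAMA, 18.6% at MUTE, 20.8% at SCRM, 21.7% at SCRM2 and 23.4% at SPCH. Raw pileup at MUTE varied less than depth did, since replicate 1 had the most kept fragments and its 639 fragments stood near the 624 and 613 of the others. The highest raw pileup of any listed peak was also nearly level over replicates, at 710, 704 and 703, and the part that removal of duplicate fragments plays in this was not tested. The joined regions of the 5 loci were all wide, from 4801 bp at SCRM2 to 11182 bp at SPCH, or above the 96th percentile of width among regions found in every replicate.

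The 5 loci were set beside 42 genes of stomatal development and its cell cycle, a list that also holds the 5 and was drawn up with earlier results of these data known. RefSeq's table matched 40 of the 42 names, all but BRXL2 and SOL2. A gene was counted when a region found in every replicate lay within 3 kb of it on either side. Of the 35 matched genes other than the 5 loci 28 were counted (80.0%), beside 44.0% of 27444 protein-coding genes. A region with a fold enrichment of at least 3 in every replicate was found at 20 of the 35 (57.1%), beside 11.6% of protein-coding genes. Among the 28 genes the median of mean log2 fold enrichment was 2.24, and over the 5 loci it was 2.89, set against 1.21 over all regions found in every replicate. For each gene its strongest such region within 3 kb was taken. The 1.21 is over all regions without such a choice, so the values are not like for like. Adjoining genes can share a region within this distance, so a count does not assign the region to the gene.

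By role, all 4 receptor genes were counted (TMM, ER, ERL1 and ERL2), as were 3 of 4 genes for secreted signals and a secreted protease (EPF1, EPF2 and SDD1 but not EPFL9). Both polarity genes, BASL and POLAR, and all 5 further transcription factor genes (FLP, MYB88, HDG2, SCAP1 and SOL1) were counted. A fold of 3 in every replicate was reached by 3 of 4 receptor genes, with ER below it at 2.12, 2.94 and 1.81. It was reached by 4 of 5 of these factor genes, with MYB88 below it at 2.63, 2.77 and 2.13. EPF1, EPF2, SDD1, BASL and POLAR all reached it. In the kinase cascade 4 of 7 genes were counted (YDA, MKK5, MKK9 and MPK6), and none of them reached a fold enrichment of 3 in every replicate. The 3 without a region found in every replicate were MKK4, MKK7 and MPK3. The regions counted for SCAP1, YDA and MPK6 lay more than 1 kb from the gene. Of the 13 cell cycle genes 10 were counted (SMR4, SMR1, CYCD5;1, CYCD7;1, CYCD3;1, CDKB1;1, CDKA;1, CYCA2;3, CYCA2;4 and RBR1) and 8 reached a fold of 3, while SIM, CYCA2;1 and CYCA2;2 had no such region. Over all protein-coding genes the share was 44.0% for a counted gene and 11.6% for a fold of 3 in every replicate. The groups are small, and differences between roles were not tested.

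The 5 genes outside the bHLH loci with the highest mean log2 fold enrichment were TMM, EPF2, SDD1, SOL1 and EPF1. TMM, a receptor-like protein that restricts stomatal patterning, reached 6.76, 10.3 and 8.85 in replicates 1, 2 and 3 (mean log2 fold 3.09 ± 0.31, SD, n = 3), with its region on chromosome 1 at 30126962 to 30130568. EPF2, a secreted peptide that limits entry into the lineage, reached 6.44, 8.87 and 7.39 (2.91 ± 0.23). SDD1, a subtilisin-like protease, reached 5.86, 9.40 and 6.79 (2.85 ± 0.35). SOL1, a DNA-binding protein of the lineage, reached 5.82, 7.83 and 7.29 (2.79 ± 0.22), and EPF1, a secreted peptide that enforces stomatal spacing, reached 6.23, 8.19 and 6.50 (2.79 ± 0.21). SCRM2 (3.02 ± 0.25), SCRM (2.98 ± 0.34) and SPCH (2.89 ± 0.30) had means inside the range of these 5, whereas FAMA (2.28 ± 0.13) and the tallest MUTE peak (1.53 ± 0.20) lay lower. MUTE was the 1 locus at which the tallest peak in the window and the strongest region within 3 kb of the gene were not the same. That strongest region, at 1850880 to 1855495 on chromosome 3, began beyond the window and had fold enrichments of 3.68, 3.51 and 3.04 (mean log2 fold 1.77 ± 0.14), which also lay below the range of the 5 genes. Its pileup was 10.3, 11.2 and 9.41 FPM, against 21.2, 30.9 and 28.0 FPM for the tallest peak in the window.

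**Figure D4:**
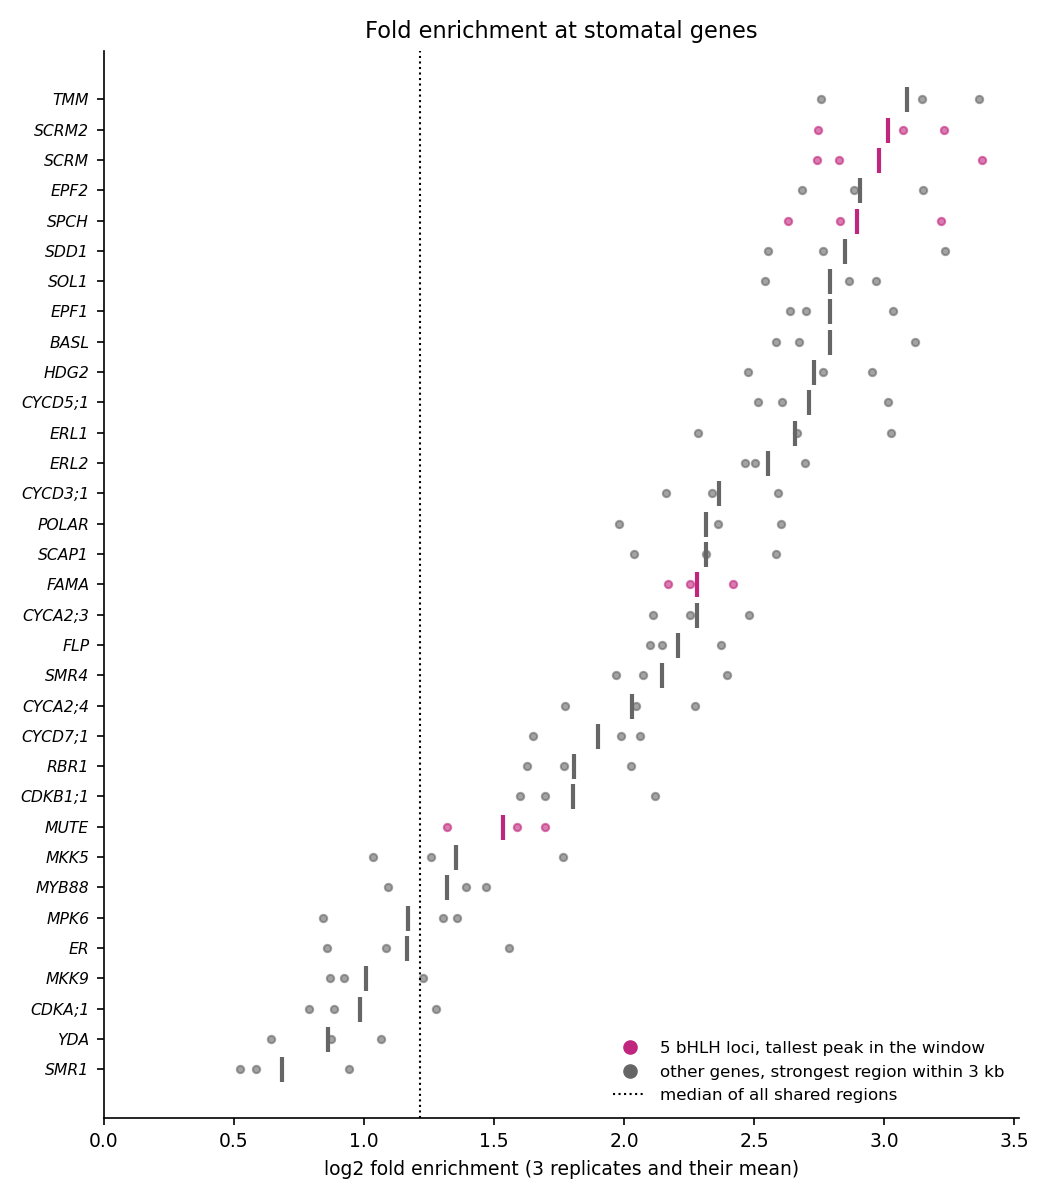
Log2 fold enrichment of the tallest peak in the window at the 5 bHLH loci (magenta) and of the strongest region within 3 kb at the 28 other stomatal genes with a region found in every replicate (grey). Points are the 3 replicates, vertical marks their mean, and the dotted line is the median of all 5957 regions found in every replicate (1.21). SCRM2, SCRM and SPCH stand near the top with TMM and EPF2, FAMA in the middle and MUTE, whose background is raised, further down.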

How the data were processed

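Each IP was set against the input of the same number with MACS (version 2.1.0.20140616, paired-end mode), per the file headers. The authors used a q-value cutoff of 0.05, an effective genome size of 130 Mb, no more than 1 fragment at a duplicate position, and windows of 1000 and 10000 bp for local background. Bowtie2 and TAIR10 are named in the submitters' processing notes. Replicates were not pooled. The deposited pileup is a signal in fragments, and as the IP was the smaller library it was not scaled. The deposited fold enrichment is a ratio of pileup plus 1 to background plus 1. The deposited −log10 p-values and q-values, whose headings were lost, were told apart by column order.

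Positions count from 1. Background was computed as pileup plus 1 over fold, minus 1. The −log10 p recomputed from it matched the listed value within 0.01 for all 23 member peaks. Ranks and joined regions use chromosomes 1 to 5 of each list. The joining and test procedures were checked on simulated data. Python 3.11.15, pandas 2.3.3 and scipy 1.17.1 were used.

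The loci, gene list and tests were chosen with earlier results of these data known. The named genes are the 5 loci, the genes their peaks cover, the counted genes of the list, and the 5 of these with the highest mean log2 fold. The nearby region beside SCRM2 was named after its values were seen. Distances to a gene's start and E-box counts were planned. Strand and genome sequence were not used here, so distances are to the gene's span, and 3 kb on either side replaced 3 kb upstream.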

Additional observations from a re-analysis of the deposited data

How the results depend on the processing

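Between IP and input, no paired analysis was possible because each deposited list already sets an IP against the input of the same number and input values of their own were not used here; the loci were compared within each replicate. A fold enrichment of at least 3 lowered the mean number of member peaks per list from 7.67 to 4.67 and left 4 of 5 loci with a region of every replicate, without MUTE; a −log10 q of at least 10, asking for summits within 150 bp, asking for 50% overlap of the shorter peak and leaving out each replicate left all 5. Leaving out a replicate gave 7 to 8.5 member peaks. Scaled to total IP fragments, mean pileup per 1000000 fragments was 15.9 at MUTE, 13.3 at SCRM, 13.1 at SCRM2, 11.7 at SPCH and 7.86 at FAMA, in the same order. With background subtracted, and per kept fragments again, it was 17.6 at MUTE and 10.6 at FAMA. In its place the mean fold enrichment was 2.91 at MUTE, 8.06 at SCRM, 8.17 at SCRM2, 7.54 at SPCH and 4.87 at FAMA. MUTE minus SCRM reversed to -1.45 by fold and to -0.16 with background subtracted, in line with the raised background at MUTE, and SCRM minus SCRM2 reversed to -0.034 by fold; the cause of the last was not tested. Without one replicate, depth-scaled pileup ranged from 24.6 to 29.5 at MUTE, 19.9 to 24.6 at SCRM, 19.6 to 24.4 at SCRM2, 17.1 to 21.6 at SPCH and 12.3 to 14.0 at FAMA, and no difference changed sign.

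The mean percentile of the tallest peak by pileup was 99.9 at MUTE, 98.9 at SPCH, 94.3 at FAMA, 99.5 at SCRM and 99.4 at SCRM2. Ranked by fold it was 80.8 at MUTE, 99.6 at SPCH and 99.9 at SCRM2, and ranked by −log10 q it was 95.5 at MUTE, 99.6 at SPCH, 99.8 at SCRM and 99.9 at SCRM2. Using the peak of highest fold changed no summit. Of the 35 further stomatal genes, 25 were counted within 1 kb and 25 by their own span, 20 at a fold of at least 3, and 28 to 31 without one replicate. The share of all protein-coding genes was computed only within 3 kb and with all replicates, so the other counts have no background beside them. E-box windows and the limit of 1 kb upstream were not run. A peak missing from a list was not called at this depth, which does not show that a site was unbound.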
